A study of Mus musculus with 8 samples.

Results

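The mitochondrial ribosomal protein genes of sorted dermal adipocyte precursors were compared between a day 5 wound bed and nonwounded skin. The members are the 77 gene symbols, of 24358 in the table, that consist of Mrpl or Mrps, a number and at most 1 further letter, and they comprise 48 Mrpl and 29 Mrps genes. Together they have 95 isoforms, of which 88 were tested by the authors and 7 were not. No member had to be left out, since each had a sum over its isoforms of at least 1 FPKM (a read count scaled by the length of the transcript and the size of the library) in both groups.

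Adipocyte precursors (APs), mesenchymal skin cells that can form fat cells, were sorted by FACS from the dermis of male C57/Bl6 mice that were 7 weeks old, and these features are shared by both groups. One group is 6 samples of nonwounded dorsal skin and the other is 2 wound bed samples taken 5 days after wounding. The sort markers, the wounding method and any pooling of animals are not given in the sources used here, and nothing says that the samples of a group came from separate animals, so the p-values speak only for the spread among these libraries, which may be technical. The table holds a single FPKM per group and isoform, so no value per sample, SD or depth can be given, and the p-values are those of Cuffdiff in the authors' deposited table, adjusted here by the Benjamini-Hochberg method over all 17775 tested isoforms and called under 0.05.

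Mitochondria keep a ribosome of their own, with a large subunit that joins amino acids and a small subunit that reads the messenger RNA. It makes the few proteins encoded in mitochondrial DNA, which are core parts of the respiratory chain and ATP synthase. Its RNA comes from mitochondrial DNA, but all of its proteins are encoded in the nucleus, made in the cytosol and imported. Part of these proteins have relatives in the bacterial ribosome and the others are found only in mitochondria. Formation of fat cells from precursors is accompanied by growth of the mitochondrial network.

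Most members stood lower in the wound bed, the majority by less than 1 on the log2 scale. The gene sum was lower in 71 of 77 members (92.2%) and higher in 6, beside 58.5% lower among all 12643 genes with a sum of at least 1 FPKM in the higher group. The median log2 ratio of wound bed over nonwounded was -0.50, a ratio of 0.708, and that of all genes was -0.16. Centred on the median of all genes with at least 1 FPKM in both groups (-0.13), the members' median was -0.37 and 66 were lower. Centred instead on all genes of like transcript length, it was -0.22 and 48 of the 72 members with a known length were lower. The ratio was -1 or below in 11 members, between -1 and -0.5 in 27 and between -0.5 and 0 in 33, which are 14.3%, 35.1% and 42.9% of the members beside 15.4%, 16.7% and 26.4% of all genes. No member reached a log2 ratio of 1, which 11.9% of all genes did. The FPKM of the 77 members summed to 1478 in the wound bed beside 1962 in nonwounded skin, or 0.320% and 0.406% of all FPKM in the table. In bulk RNA, fewer cells of a type and less RNA per cell cannot be told apart.

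Few of these differences passed the test. By the Cuffdiff p-values of the authors' deposited table, 5 of 88 tested member isoforms (5.68%) were called lower after Benjamini-Hochberg adjustment, beside 7.25% of all tested isoforms, and 0 were called higher, beside 5.66%. At an unadjusted p under 0.05 the same table gave 21 lower (23.9%, beside 16.4% of all) and 0 higher (beside 10.9%). By gene, 5 of 77 members (6.49%) had an isoform called lower, beside 9.16% of all genes with a tested isoform, and 0 had one called higher, beside 7.21%. With a log2 ratio of -1 or below also required, 4 isoforms were called, beside 6.11% of all, and at an adjusted p under 0.1 there were 12, beside 10.2%. The share of called members was thus close to the background, and the direction of the gene sums was the more uneven measure. Differences under 0.75 on the log2 scale were rarely called for any gene, and larger ones more often. This was read from all isoforms between the 10th and 90th percentile of the members' levels, FPKM 2.12 to 41.3. Of these, 0 of 2186 were called at an absolute log2 ratio of 0.25 to 0.5 and 1.58% at 0.5 to 0.75. The share was 22.2% at 0.75 to 1 and 38.4% at 1 to 1.5. Of the tested member isoforms at any level, 26, 17, 11 and 12 fell in these 4 ranges, with 0, 0, 1 and 4 called.

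**Figure D1:**
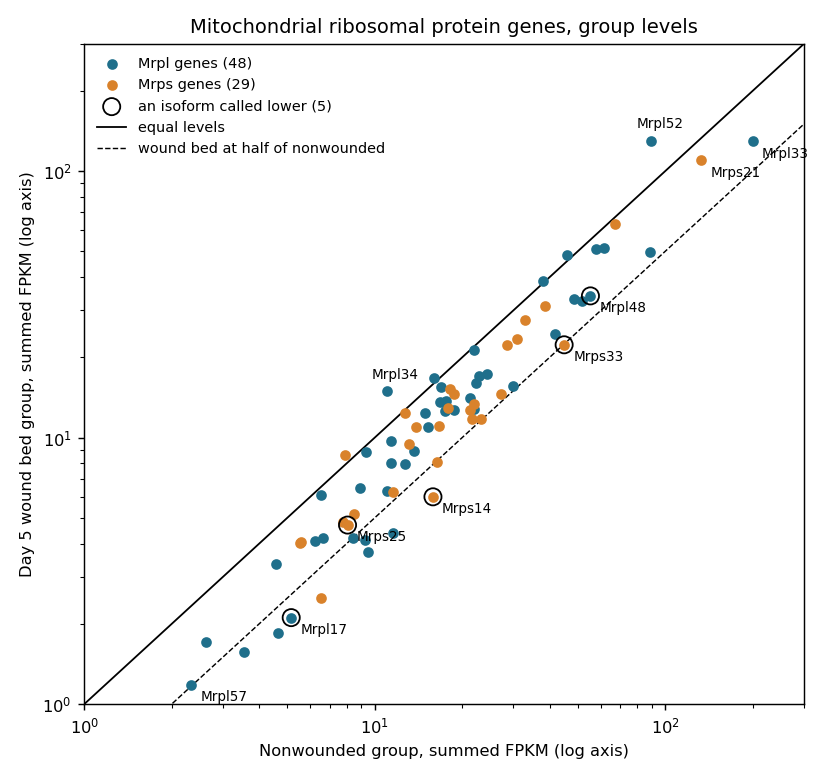
Summed FPKM of each of the 77 members after wounding (vertical) and in nonwounded skin (horizontal), both on log axes, 1 point per gene, blue for Mrpl and orange for Mrps, with rings on the 5 genes with an isoform called lower. The solid line marks equal levels and the dashed line a wound bed level of 0.5 times nonwounded. Most points lie between the lines, and Mrpl52 (130 against 89.7) and Mrpl34 (14.9 against 11.0) lie above the solid one.

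The 5 members with a call were Mrps14, Mrps33, Mrps25, Mrpl48 and Mrpl17. Mrps14, a protein of the head of the small subunit with a bacterial relative, stood at 5.996 FPKM in the wound bed beside 15.9 without a wound and fell by 1.40 on the log2 scale (adjusted p = 0.00306, Cuffdiff in the authors' deposited table with Benjamini-Hochberg adjustment). Mrpl17, a large subunit protein that lies near the exit of the peptide tunnel in bacteria, stood at 2.11 against 5.16 and fell by 1.29 (adjusted p = 0.000882 from the authors' deposited table). This is the smallest adjusted p in the table, which many isoforms share.

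Mrps33 and Mrps25 are small subunit proteins without a bacterial relative. The sum of both Mrps33 isoforms stood at 22.3 against 44.9, and its called isoform at 20.7 against 42.9, a log2 ratio of -1.05 (adjusted p = 0.00608 from the authors' deposited table). Mrps25 stood at 4.70 against 8.06 and fell by 0.78 (adjusted p = 0.0415 from the authors' deposited table), and its locus is shared with Nr2c2. The coding isoform of Mrpl48, a protein of the central protuberance of the large subunit, fell by 1.35, from 50.4 to 19.8 (adjusted p = 0.00971 from the authors' deposited table). Its locus is shared with Rab6a, and its noncoding isoform stood at 14.2 against 4.88 without a call, so that the Mrpl48 sum gave a log2 ratio of -0.70. All 5 gene sums were lower by more than the median member. The table places Mrps14 at chr1:160195260-160201186, Mrps33 at chr6:39801807-39810936, Mrps25 at chr6:92091418-92184023, Mrpl48 at chr7:100549117-100641268 and Mrpl17 at chr7:105803782-105811087, with starts counted from 1. The Mrps25 and Mrpl48 loci include the genes they share them with, and the build of these positions is uncertain, as they match GRCm38 genes although mm9 is named.

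Nuclear genes of mitochondrial proteins often carry certain letters before their starts. The sequences before the starts of 4 called members and of Mrpl52, the member with the highest ratio, are shown with such letters marked. They are the 250 bases before the RefSeq start in GRCm38.p6, 5′ to 3′ on the strand of the gene, and capitals mark matches to CCGGAA (the core bound by ETS factors such as GABP), a relaxed NRF1 motif (the NRF1 palindrome with any base in the sixth place) or AANATGGCG (a YY1 motif) on either strand. Mrpl48 has several starts in the reference and is not shown.
Mrpl17, chr7:105811088-105811337, minus strand: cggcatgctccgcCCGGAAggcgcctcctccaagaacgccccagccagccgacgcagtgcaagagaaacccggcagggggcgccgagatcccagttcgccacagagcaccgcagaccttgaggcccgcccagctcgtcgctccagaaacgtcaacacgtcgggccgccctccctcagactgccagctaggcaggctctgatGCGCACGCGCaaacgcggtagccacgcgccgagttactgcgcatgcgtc
Mrps14, chr1:160194965-160195214, plus strand: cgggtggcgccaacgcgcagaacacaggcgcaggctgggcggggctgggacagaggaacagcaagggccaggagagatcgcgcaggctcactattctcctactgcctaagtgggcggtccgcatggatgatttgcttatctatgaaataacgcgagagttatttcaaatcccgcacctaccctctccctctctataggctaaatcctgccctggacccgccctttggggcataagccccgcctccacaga
Mrps25, chr6:92184024-92184273, minus strand: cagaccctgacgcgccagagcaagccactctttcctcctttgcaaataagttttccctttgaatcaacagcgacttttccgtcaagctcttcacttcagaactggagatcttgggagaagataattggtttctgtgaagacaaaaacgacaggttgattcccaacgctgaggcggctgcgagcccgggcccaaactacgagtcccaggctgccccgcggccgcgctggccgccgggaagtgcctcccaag
Mrps33, chr6:39810937-39811186, minus strand: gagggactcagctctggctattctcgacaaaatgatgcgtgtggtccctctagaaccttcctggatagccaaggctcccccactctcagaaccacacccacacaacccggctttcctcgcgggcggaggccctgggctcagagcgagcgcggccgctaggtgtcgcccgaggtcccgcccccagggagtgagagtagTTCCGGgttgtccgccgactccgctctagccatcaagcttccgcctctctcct
Mrpl52, chr14:54426659-54426908, plus strand: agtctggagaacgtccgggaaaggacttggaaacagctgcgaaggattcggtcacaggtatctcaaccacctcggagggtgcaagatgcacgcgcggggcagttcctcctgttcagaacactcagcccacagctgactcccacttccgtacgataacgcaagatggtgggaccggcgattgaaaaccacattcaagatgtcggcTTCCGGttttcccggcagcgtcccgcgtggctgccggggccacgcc
Mrpl17 holds the relaxed NRF1 motif and the ETS core, Mrps33 and Mrpl52 the ETS core alone, and Mrps14 and Mrps25 none of these letters in the bases shown. Mrps14 does hold the ETS core in the longer window, which runs to 50 bases after the start.

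RefSeq promoter windows, 250 bases before to 50 after the start, matched 68 of the 77 members with 74 windows. The ETS core CCGGAA was present in 56.8% of member windows, 25.9% of 12529 windows of genes with at least 1 FPKM and 14.9% of all 32851 windows. This core was added after the windows were seen. The longer CCGGAAGT, which contains it, was in 16.2%, 7.45% and 3.89%, the relaxed NRF1 motif in 17.6%, 9.50% and 4.60%, and the NRF1 palindrome it contains in 4.05%, 1.95% and 0.971%. AANATGGCG was in 13.5%, 4.77% and 2.38%. The E-box CACGTG (9.46% against 9.59% of the windows of expressed genes) and CCAAT, bound by NFY (40.5% against 37.5%), were at about the general share. All motifs were read on both strands, and a match is a description of letters and not a bound site. The median log2 ratio was -0.48 for the 13 members with the relaxed NRF1 motif and -0.49 for the 55 without. It was -0.45 for the 39 with CCGGAA and -0.69 for the 29 without. The longer CCGGAAGT went the other way, at -0.55 for 12 with it and -0.48 for 56 without. For CCAAT the medians were -0.36 for 27 with it and -0.66 for 41 without. They were -0.46 (10) and -0.53 (58) for AANATGGCG, and -0.31 (5) and -0.50 (63) for the E-box. These differences were not tested, so none is tied to a motif.

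Some members have the start of a gene on the other strand nearby. Of the 68 members with a window, 25 had the start of another protein-coding gene pointing away from them within 1000 bases. The widest gap was 935 bases, for Mrpl41. The share over all genes was not computed, so this count has no background beside it. The starts of Mrpl46 and Mrps11 lie 42 bases apart. These 2 members stood at log2 ratios of -1.35 and -0.69. Neighbours were matched by symbol, so Twnk beside Mrpl43 is not counted. It is listed under its older symbol Peo1, at 2.51 in the wound bed against 2.80. Among the 22 matched neighbours that are no members and had at least 1 FPKM, 12 were lower and their median log2 ratio was -0.045. The 25 members had a median of -0.66 and the 43 others -0.48. Of the 22 neighbours 0 had an isoform called lower and 2 had one called higher, the DNA repair gene Eme1 (11.7 against 4.36) beside Mrpl27 and Ppp1r10 (15.2 against 7.85), which encodes a regulatory subunit of protein phosphatase 1, beside Mrps18b. Whether the libraries keep strand is not given in the sources used here, so reads where such genes overlap cannot be assigned with certainty.

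By structure, every class had a negative median. Large subunit proteins with a bacterial relative were lower in 28 of 30 cases (median log2 ratio -0.48) and those found only in mitochondria, among which Mrps30 is counted, in 16 of 19 (-0.56). Small subunit proteins with a bacterial relative were lower in 14 of 15 cases (-0.47) and those without one in 9 of 9 (-0.78, from -1.39 for Mrps31 to -0.26 for Mrps23). These counts stand beside 92.2% lower among all members and 58.5% among all genes with at least 1 FPKM in the higher group. The classes differ in level and number, and their differences were not tested. The 3 relatives of bacterial S18, which sit at different places of the ribosome, lay close together. Mrps18a stood at 27.7 against 33.0 (-0.25), Mrps18b at 14.6 against 18.7 (-0.36) and Mrps18c at 31.3 against 38.7 (-0.31), none of them called. Mrps36, now assigned to the 2-oxoglutarate dehydrogenase complex instead of the ribosome, stood at 14.6 against 27.1 (-0.89), also without a call.

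**Figure D2:**
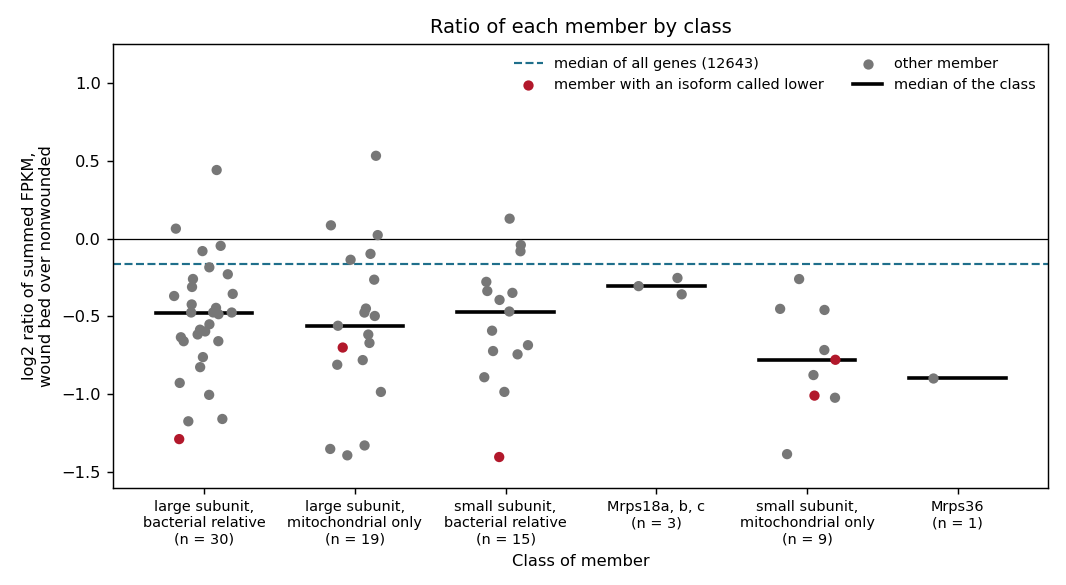
Log2 ratio of summed FPKM, wound bed over nonwounded (vertical axis), for each member by structural class (horizontal axis), 1 point per gene, red for genes with an isoform called lower, with a bar at the class median and a dashed line at the median of all genes (-0.16). All class medians lie under the dashed line, and the 9 small subunit proteins found only in mitochondria all lie under it.

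Places on the ribosome were taken from lists made here, which may not be complete. The 4 proteins listed for the factor-binding stalk and its base were all lower without a call. Mrpl12, the stalk protein that contacts translation factors, stood at 17.0 against 22.8 (-0.42), Mrpl10, its anchor, at 17.4 against 24.4 (-0.49) and Mrpl11, at the stalk base, at 4.11 against 6.22 (-0.60). Mrpl53 had a log2 ratio of -0.14. The 8 proteins around the exit of the peptide tunnel were all lower, with a median of -0.79 and 1 call, that of Mrpl17. They ranged from Mrpl44, at 4.40 against 11.5 (-1.39), to Mrpl45, which holds the ribosome at the inner membrane, at 6.09 against 6.52 (-0.099), which lies above 0 when centred on all genes. The 7 proteins of the central protuberance had a median of -0.66 and 1 call, that of Mrpl48. The 3 small subunit proteins of the decoding centre and the messenger RNA entry had a median of -0.47 and no call, with Mrps5 at 6.23 against 11.6 (-0.89) and Mrps24 at 13.0 against 17.9 (-0.47). Mrps12, of the decoding centre, stood at 12.4 against 12.7 (-0.042), and at 0.089 when centred on all genes. Among all 77 members 92.2% were lower, beside 58.5% of all genes, and 6.49% had an isoform called lower, beside 9.16%. Counts over so few proteins thus set no place apart.

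The other members at the low end were not called. Besides Mrps14, Mrpl44, Mrps31 and Mrpl46, they were Mrpl41 (1.84 against 4.63, -1.33), whose locus is shared with Dph7, Mrpl1 (1.57 against 3.55, -1.17) and Mrpl47 (4.13 against 9.23, -1.16). Mrps31 stood at 2.49 against 6.52 and Mrpl46 at 3.73 against 9.51.

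The 6 members above 0 were Mrpl52 (130 against 89.7, 0.53), Mrpl34 (14.9 against 11.0, 0.44), Mrps9 (8.64 against 7.91, 0.13), Mrpl42 (48.6 against 45.8, 0.085), Mrpl28 (16.7 against 16.0, 0.063) and Mrpl54 (38.6 against 38.0, 0.022). None was called, and Mrpl18 (21.2 against 21.9, -0.047, and 0.083 when centred on all genes) lay next to them. Mrpl52 was the most abundant member in the wound bed on this per-length scale, at 130 FPKM. In nonwounded skin Mrpl33 led at 201 (129 in the wound bed, log2 ratio -0.63), followed by Mrps21 (133, against 110 in the wound bed), Mrpl52, Mrpl23 (88.5, against 49.9), Mrps16 (67.1, against 63.4, with a ratio above 0 when centred on all genes) and Mrpl30 (61.7, against 51.6). Levels spanned 1.18 to 130 FPKM after wounding and 2.34 to 201 without it, with medians of 12.6 and 16.8, and Mrpl57 was lowest in both.

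The ratio varied with the level. The median log2 ratio was -0.99 for the 9 members with a mean of 1 to 5 FPKM, -0.53 for the 46 at 5 to 20, -0.49 for the 15 at 20 to 50 and -0.26 for the 7 at 50 to 200. Over all genes in these ranges it was -0.24, -0.13, -0.13 and -0.042. Level and transcript length, which is given next, were not separated here. Among low members Mrpl17 and Mrpl1 were assigned long transcripts (7300 and 3431 bases), though Mrpl41 has a short one (776). The abundant Mrps21, Mrpl52 and Mrpl33 have short ones (405, 418 and 478). The length assigned to Mrpl17 nearly fills its locus, chr7:105803782-105811087, so it may not be that of the spliced transcript. By this length Mrpl17 is counted beyond 3000 bases below.

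The ratio of all genes also varied with transcript length, and most members have short transcripts. A length could be assigned to 72 members from the GENCODE M21 transcript that matches the major isoform, with a median of 1214 bases beside 2776 for all genes. Below 1000 bases the 25 members had a median log2 ratio of -0.39 and all 1102 genes one of -0.44, with 70.1% of all genes lower. From 1000 to 1500 bases the medians were -0.46 for 23 members and -0.38 for all genes, from 1500 to 3000 bases -0.50 for 11 members and -0.23, and beyond 3000 bases -0.70 for 13 members and 0.014. Of the 72 members, 48 lay below the median of all genes of their length class, by a median of 0.22 on the log2 scale. By class, from short to long, 12 of 25, 13 of 23, 10 of 11 and 13 of 13 members lay below that median, so the members under 1500 bases were spread about evenly around genes of like length. What part transcript length had in the members' lower values was not tested.

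**Figure D3:**
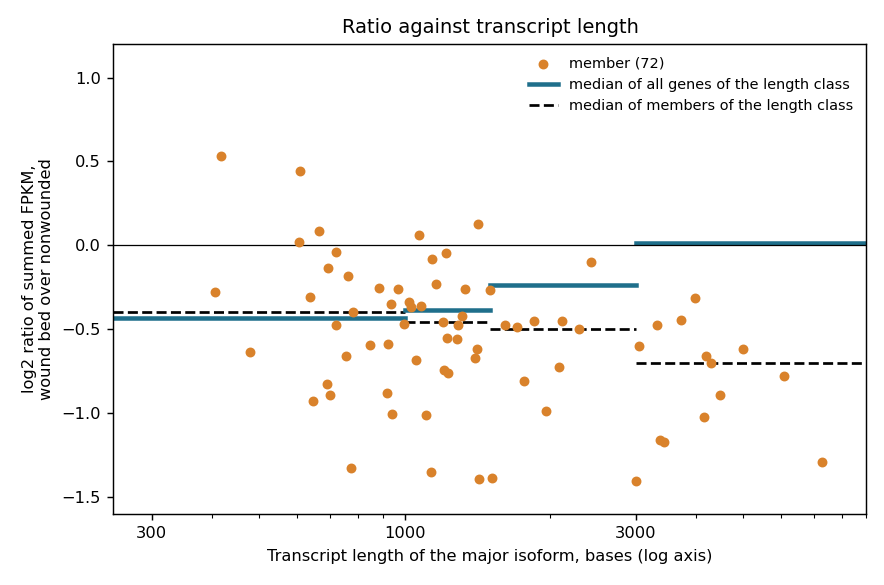
Log2 ratio of summed FPKM, wound bed over nonwounded (vertical axis), against the transcript length of the major isoform (horizontal log axis) for 72 members, with the median of all genes (blue) and of members (dashed) in each of 4 length classes. Both medians lie close together below 1500 bases, and beyond 3000 bases the members' median is -0.70 and that of all genes 0.014.

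Of the members, 68 have a single isoform in the table and 9 have more. In 4 of the 9 the major isoform and the sum differed by over 0.5 on the log2 scale, and of the differences below only that of Mrpl48, given above, was called. For Mrps23 the isoform that led in nonwounded skin stood at 1.27 against 17.0, and another at 8.80 against 0.112, while the sum of all Mrps23 isoforms was 15.2 against 18.2 (-0.26). Its locus is shared with Cuedc1 and 2210416O15Rik. Mrps10 had isoforms at log2 ratios of 0.44 and -1.22 and a sum of 11.0 against 13.9 (-0.34). For Mrps2 the leading isoform had a log2 ratio of -0.22 and the second was listed near 0 in the wound bed, against 2.52, so that the sum gave -0.72. Mrpl55 and Mrps36 likewise have an isoform listed near 0 in the wound bed, at 2.69 and 3.71 FPKM in nonwounded skin.

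**Figure D4:**
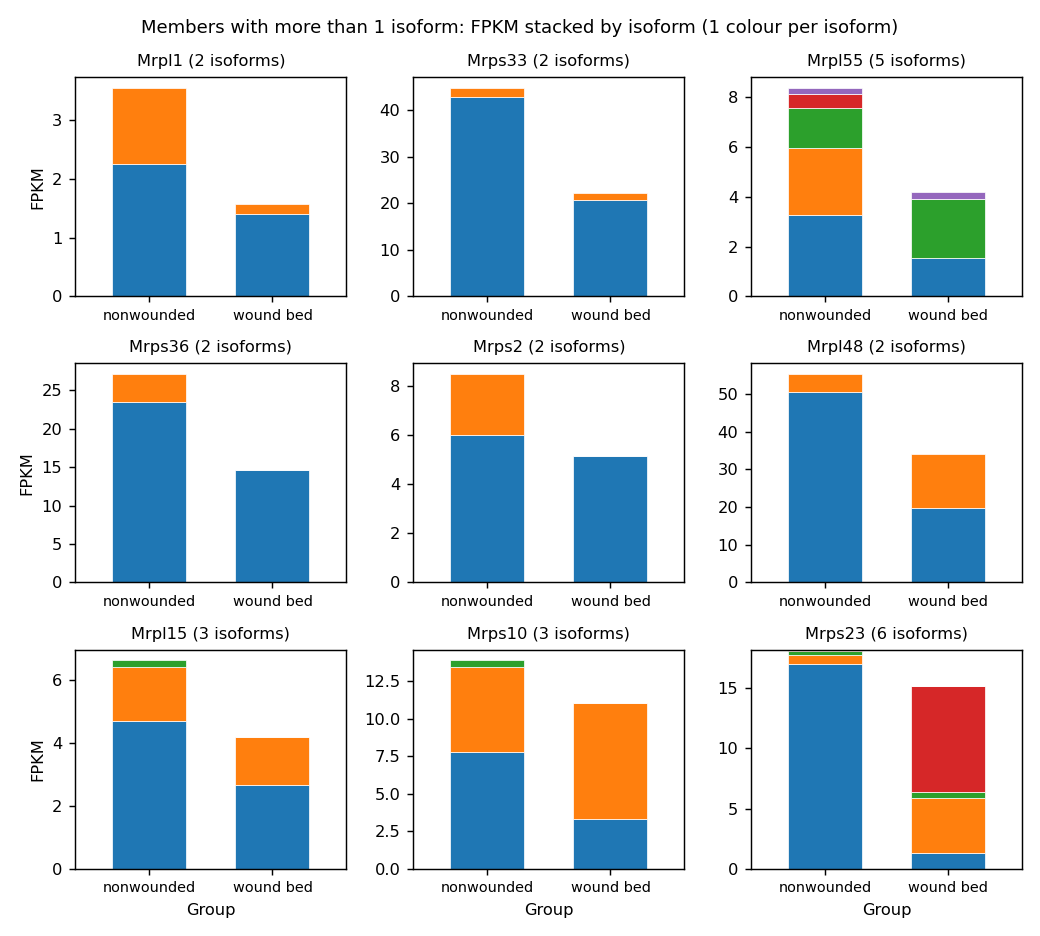
FPKM (vertical axis, separate for each panel) in nonwounded skin and the wound bed for the 9 members with more than 1 isoform, stacked by isoform with 1 colour each. The leading isoform of Mrps23 differs between the groups while its totals are 18.2 and 15.2, and Mrps33, with totals of 44.9 and 22.3, has 1 leading isoform in both.

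Subunits and partners outside the naming rule were mostly lower too. Over all genes 58.5% were lower and 9.16% had an isoform called lower. All 6 measured ribosomal subunits with other names were lower (median log2 ratio -0.64), and Ptcd3, an RNA-binding protein of the small subunit, fell by 1.10, from 8.84 to 4.13 (adjusted p = 0.0157 from the authors' deposited table). Dap3, a GTP-binding subunit, stood at 7.33 against 10.9, and Gadd45gip1, a protein of the large subunit, at 1.97 against 4.08, neither called. Assembly and ribosomal RNA factors were lower in 23 of 25 cases (median -0.55) with 0 called in either direction. The mitochondrial translation factors were lower in 12 of 15 (-0.38), and among them Oxa1l, which inserts the new proteins into the inner membrane, fell by 1.02 (8.43 against 17.1, adjusted p = 0.0191 from the authors' deposited table). The elongation factor gene Tufm stood at 19.1 against 22.9.

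Mitochondrial tRNA synthetases were lower in 16 of 17 cases (-0.41). In the authors' deposited table Lars2, the leucine enzyme, fell from 1210 to 77.6 (adjusted p = 0.000882) and Hars2, the histidine enzyme, fell by 1.06 (adjusted p = 0.0178). The Lars2 level is far out of line with the other enzymes, of which Iars2 was highest in nonwounded skin at 14.0. Whether the reads counted for Lars2 all come from its messenger RNA was not tested. Genes of mitochondrial DNA copying and transcription were lower in 7 of 10 with at least 1 FPKM (-0.20), with 0 called, among them Tfam, which packs and starts transcription of this DNA, at 3.90 against 6.25.

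Genes of nuclear regulators of mitochondrial genes differed in direction from the members. Of 7 with at least 1 FPKM, 6 were higher (median 0.29). Myc, a transcription factor gene that acts on ribosome and mitochondrial genes, rose by 3.23, from 14.9 to 140.5 (adjusted p = 0.000882 from the authors' deposited table), and Gabpb1, a subunit of the ETS factor GABP, rose from 5.53 to 17.0 (adjusted p = 0.00874). Nrf1 stood at 4.62 against 6.06, Gabpa at 8.69 against 7.88 and Yy1 at 20.4 against 15.8, and the coactivator gene Ppargc1a at 0.0804 against 0.143, none of them called.

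Among like genes, 35 of 36 nuclear subunits of respiratory complex I were lower (median -0.45), with 3 of 44 tested isoforms called lower and 0 higher, and Ndufb9 at 59.8 against 122. Cytosolic ribosomal proteins were lower in 66 of 84 with at least 1 FPKM (median -0.26), with 7 of 101 isoforms called lower and 2 higher. Over all tested isoforms 7.25% were called lower and 5.66% higher, so the lower calls in both lists were near the general share. The transcripts of both lists are also short, with median lengths of 718 and 791 bases. The difference between these lists and the members was not tested, so nothing here sets the mitochondrial ribosome apart from complex I.

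**Figure D5:**
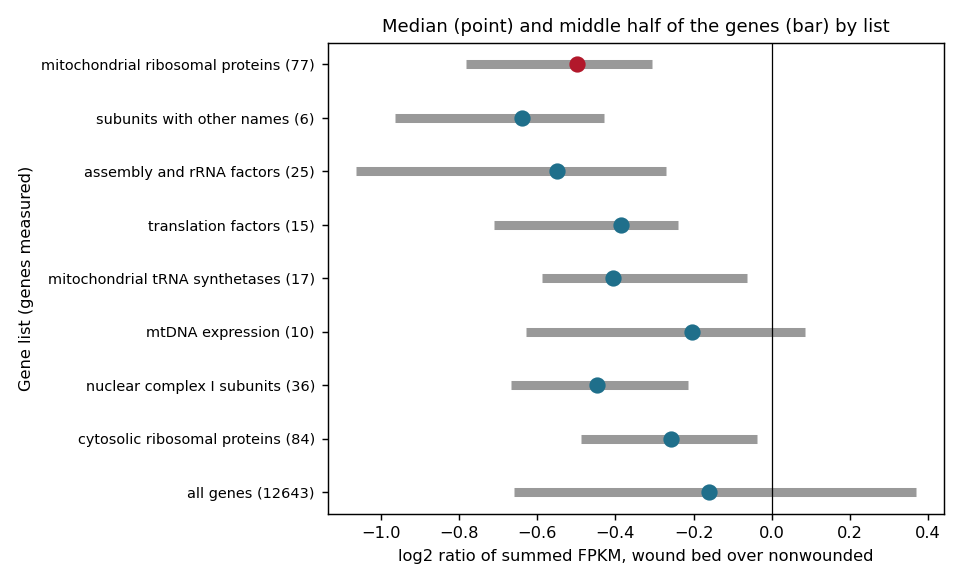
Log2 ratio of summed FPKM, wound bed over nonwounded (horizontal axis), as the median (point) and the range between the lower and upper quartile (bar) for each gene list (vertical axis, with the number of genes). The median is -0.50 for the members, -0.45 for nuclear complex I subunits, -0.26 for cytosolic ribosomal proteins and -0.16 for all genes.

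The sort markers are not given, so a list of adipocyte precursor markers was chosen here, and all of its genes were present in both groups. Pdgfra stood at 91.8 against 80.9, Itgb1 at 197 against 117 and Cd34 at 679 against 1104. Ly6a stood at 1576 against 2691 and Cd24a at 9.38 against 24.9. In the authors' deposited table Cd24a fell (log2 ratio -1.41, adjusted p = 0.00239), as did 2 isoforms of Ly6a (smallest adjusted p = 0.000882). Markers of other cells moved with the groups. The 10 macrophage markers were higher in 10 of 10 cases and called in 8, with a summed FPKM of 1003 against 307, although Ptprc itself was low at 5.68 against 0.806. Erythroid markers were lower in 6 of 6 (206 against 3746), skeletal muscle markers in 9 of 9 (8.83 against 120.4) and adipocyte markers in 7 of 7 (8.21 against 134). All erythroid markers but Hba-a2 were called. Of the muscle markers only Mylpf and Myl1 were called, and of the adipocyte markers only Adipoq and Car3. Myh1, Myh4 and Lep stood under 1 FPKM in both groups and had no tested isoform. Endothelial markers were lower in 1 of 4, Tek, which set their sums of 25.2 against 88.7, and keratinocyte markers were higher in 4 of 5 (31.2 against 14.4), the exception being Epcam at 0.261 against 0.824. Of these 2 lists, Tek had an isoform called lower, and Krt14 and Krt1 were called higher. These counts and sums cover every gene of each list that is in the table. No marker named in these lists and present in the table was at 0 in either group. Their part in the members' lower values was not tested.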

How the data were processed

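RNA of sorted adipocyte precursors, extracted with Trizol and a column kit, was made into TruSeq mRNA libraries, per the labels' protocols. Reads were aligned with TopHat2 2.0.2 and groups compared with Cuffdiff 2.0.2, with mm9 named as the build, per the submitters' processing notes. The authors deposited 1 table of 34535 isoforms with an FPKM per group, pooled over 6 nonwounded and 2 wound bed samples, and a p-value per isoform. The number of per-sample columns not used was 0, and since library depths are unknown, intervals are left out.

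Here the deposited p-values of the 17775 isoforms with status OK were adjusted by the Benjamini-Hochberg method, which gave the deposited yes or no for all 34535 isoforms. Symbols turned into dates in 56 isoforms were restored by transcript identifier, and 15 isoforms with other status were left out. FPKM were summed over the isoforms of a gene, without a pseudocount. For these gene sums no p-value exists, and members are described by counts and medians. The major isoform is the tested one with the highest summed FPKM.

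Although mm9 is named, the start or end of 66 of 66 member loci that hold 1 gene lay within 100 bases of the GRCm38.p6 gene, so the build of the table's positions is uncertain. Promoter windows were taken by symbol from RefSeq GRCm38.p6. Transcript lengths came from GENCODE M21 and were kept where no longer than the locus.

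The members and lists were chosen with earlier results of these data known. Members named are those with a call, the 8 highest and 8 lowest ratios, the 6 highest levels, up to 6 whose major isoform and sum differ by over 0.5, and 8 by role. Of other lists, called genes, up to 3 per direction and the 3 highest could be named. Mrpl21, Mrpl45, Mrpl53, Mrpl55, Mrpl57, Mrps5, Mrps24, Epcam, Myh1, Myh4, Lep and some regulators beyond this were picked with values in view. The classes of level and length, the ETS core and the divergent neighbours were added after seeing the data. The adjustment and gene sums were tested on simulated data. Python 3.11.15, numpy 2.4.6, pandas 2.3.3 and matplotlib 3.10.9 were used.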

Additional observations from a re-analysis of the deposited data

How the results depend on the processing

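The count of 5 member isoforms called lower was 4 at an adjusted p under 0.01 or with an absolute log2 ratio of at least 1, and stayed at 5 with adjustment over isoforms of at least 1 FPKM, with minimums of 1 and 5 FPKM, without isoforms at 0 and by the authors' significance column. At an adjusted p under 0.1 it was 12 (13.6%), beside 10.2% of all isoforms, and 0 were higher under each of these 8 settings. The median log2 ratio of -0.50 was -0.49 with a pseudocount of 0.1 FPKM, -0.45 with 1 FPKM, -0.48 for members of at least 5 FPKM, -0.48 for the 66 members alone in their locus, -0.49 without Mrps36, -0.37 when centred on the median of all gene sums (-0.13) and -0.22 when centred on that of the transcript length class. The number of lower members was 70 by major isoform, 66 after centring on all genes and 48 of 72 after centring on the transcript length class. Centring on all genes turned 5 members, Mrpl18 (0.083), Mrps12 (0.089), Mrps16 (0.048), Mrpl21 and Mrpl45, and the major isoform turned Mrps10 (0.44). No paired analysis was possible because the table holds no value per sample, and for the same reason no sample could be left out. Differences near the members' median were rarely called for any isoform at these levels, 1.58% at an absolute log2 ratio of 0.5 to 0.75, and depth is unknown.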
